A study of Caenorhabditis elegans with 6 samples.

Results

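Messenger RNAs of the translation initiation and elongation factors were examined in whole Caenorhabditis elegans of a wild-type strain and of a strain labelled as lacking the circular RNA of crh-1. Members were the genes of the count table whose WBcel235 symbol starts with eif-, ife-, ifg- or eef-, which gave 37 of 46748 genes. The rule uses symbols and no measured value, although earlier results of these data were known when it was chosen. All 37 passed the filter on low counts. The wild type was strain N2, and the circ-crh-1 knockout was strain VDL786, which carries crh-1(syb385), an edit in the gene that encodes the worm CREB protein. There were 3 libraries of total RNA for each genotype, from day 1 adults and called independent by the labels, and both genotypes were kept at 20 °C and moved at the last larval stage to plates with 25 µM 5-fluorodeoxyuridine (FUdR), an inhibitor of DNA synthesis that prevents progeny. All libraries therefore describe FUdR-treated animals, and the knockout is known here from 1 strain. The labels do not say whether replicates came from separate cultures, so p-values measure the spread between these libraries, which may in part be technical.

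Initiation factors bring the small ribosomal subunit, the initiator tRNA and the mRNA together. The cap-binding protein eIF4E and the scaffold eIF4G recruit the mRNA, eIF2 carries the initiator tRNA, eIF2B recharges eIF2 with GTP, and eIF3 bridges the small subunit to the mRNA. Elongation factor eEF1A then delivers aminoacyl-tRNAs, the complex of eEF1B and eEF1G subunits exchanges its nucleotide, and eEF2 moves the ribosome along. In C. elegans many mRNAs carry a trimethylated cap from trans-splicing, and the eIF4E isoforms differ in whether they bind it. The gonad of an adult hermaphrodite is a large translating tissue, and several of these genes are known for germline roles.

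Total counts were 38974777 to 47444165 per library and protein-coding counts 14188050 to 35075781, with knockout replicate 2 lowest in both. rRNA genes took 22.9% to 36.4% of the counts in 5 libraries and 58.5% in knockout replicate 2. Markers of germline, sperm, intestine, muscle, neurons and hypodermis were detected in every library, and of the embryo markers only med-1 was at 0 in any library. Counts of crh-1 pool its linear and circular RNA and are not a check of the genotype. Its levels were 20.6, 18.7 and 23.9 CPM in the wild-type libraries against 17.9, 17.6 and 23.9 CPM in the knockout ones (CPM is the usual unit of counts relative to library size, here with library sizes scaled by TMM).

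No translation factor gene differed detectably between genotypes. Of the 37 members, 0 passed edgeR's quasi-likelihood test at a Benjamini-Hochberg adjusted p under 0.05, where 0% of the 14354 genes tested did. At an unadjusted p under 0.05 there were 0 members, against 0.982% of all genes. DESeq2 called 0 members and 0.186% of the genes it tested, and limma-voom called 0 members. Blocking on the replicate number gave 0 members and 0.00697% of all genes in edgeR. Adjusted p-values of the members ran from 0.996 to 1 in the edgeR test. As a ratio of knockout to wild type, the 95% interval lay wholly between 0.5 and 2 for 32 of the 37 members, and over all members its bounds reached from 0.431 (eif-2D) to 2.08 (eef-1A.2). Differences inside these intervals could not be resolved by this fit, which took the 3 libraries per genotype as unpaired. With the replicate number as a block, every member had a smaller standard error. It went from 0.421 to 0.224 for ife-3 and from 0.285 to 0.261 for eef-1A.1.

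Log2 fold changes, knockout over wild type, had a median of -0.06 over the members and 0.02 over all genes tested. They were positive in 9 of 37 members, or 24.3%, and in 52.3% of all genes. All 6 elongation factors and 3 of 31 initiation factors were on the positive side. Scaled by library totals alone, which shifted the all-gene median from 0.02 to -0.21, 0 of 37 were positive. The TMM factor of knockout replicate 2 was 0.626, against 1.06 to 1.13 in the rest. With protein-coding genes only, 4 of 6 elongation factors and 1 of 31 initiation factors were positive. The side also depended on single libraries: 27 members were positive when wild-type replicate 3 was left out, and 25, 22 and 5 when knockout replicates 1, 2 and 3 were left out in turn. The member medians were then 0.17, 0.03, 0.04 and -0.31, and the positive initiation factors 21, 19, 16 and 2 of 31. Of the 6 elongation factors, 3 were positive with knockout replicate 3 left out, 4 with wild-type replicate 1 left out and 5 with wild-type replicate 2 left out. The difference between elongation and initiation factors was not tested.

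**Figure D1:**
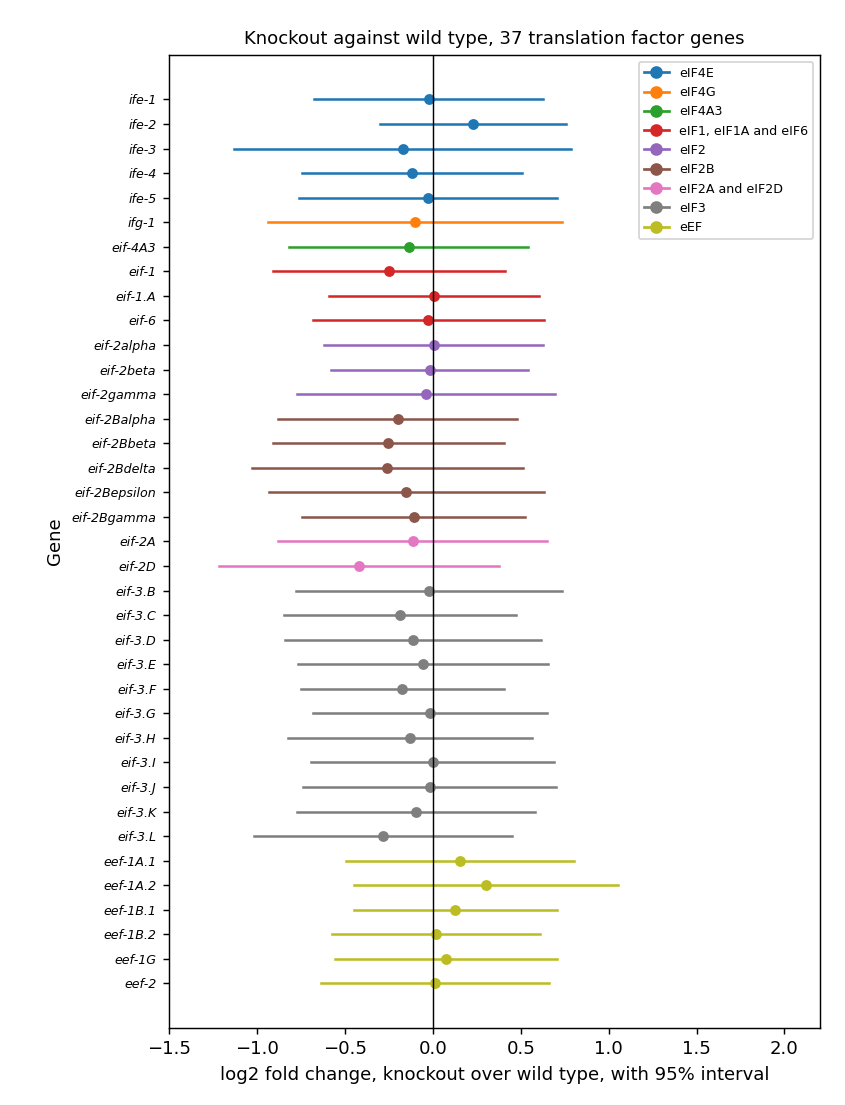
Each point is the log2 fold change of a gene, knockout over wild type, from the edgeR fit, coloured by class, and each line is its 95% interval (3 libraries per genotype). All 37 intervals include 0; all 6 elongation factors lie right of 0 on TMM scaling, but 0 of them on library totals alone and 3 with knockout replicate 3 left out.

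Levels between genes were set side by side per length, as TPM (counts per kb of exon, rescaled to the same sum in each library). Over all genes of the table, mean TPM of the members ran from 1.84 (ife-5) to 2140 (eef-1A.1), with a median of 36.4. rRNA takes a different share of each library and enters this scale, so the levels below are TPM over protein-coding genes, where the same extremes are 6.72 ± 1.36 and 7970 ± 1370 (SD, n = 6). Of the 37 genes, 31 had the same rank on both scales and none moved by more than 2 places. The first 4 places went to elongation factors, and the last 8 to the 5 eIF2B subunits with ife-2, ife-4 and ife-5.

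**Figure D2:**
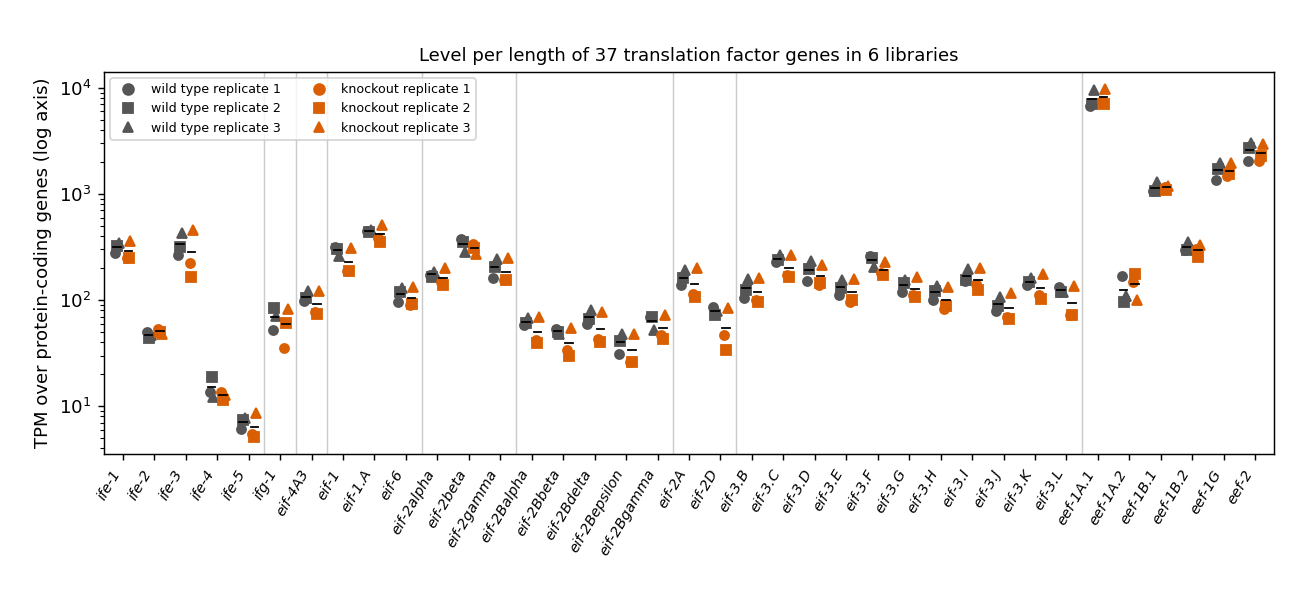
Level per length (TPM over protein-coding genes, log axis) of each gene in each library; grey symbols are wild type, orange symbols knockout, shapes mark the replicate number, and bars are group means. eef-1A.1 is the highest, at 7970 on average over the 6 libraries, and ife-5 the lowest, at 6.72.

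C. elegans has 5 eIF4E genes, and transcripts of ife-1 and ife-3 made up most of their summed level. IFE-3 is the isoform needed for embryos and binds only the monomethylated cap, whereas IFE-1, a germline P granule protein, also binds the trimethylated cap. ife-3 (V, 6584 to 7828, minus strand) had 135, 160 and 251 CPM in the wild-type libraries against 124, 97.6 and 263 CPM in the knockout ones. Both replicate 3 libraries were far above the rest and the genotypes overlapped, with a log2 fold change of -0.17 (SE of 0.42, and 0.996 as the edgeR adjusted p). This was the largest standard error of any member. The value became -0.71 with knockout replicate 3 left out, 0.18 with wild-type replicate 3 left out and 0.09 with knockout replicate 2 left out. ife-1 (III, 13343417 to 13344618, plus strand) had 122, 143 and 175 CPM in the wild-type libraries against 123, 129 and 181 CPM in the knockout ones. It was also highest in both replicate 3 libraries, with overlap of the genotypes and a log2 fold change of -0.02 (SE 0.29; 0.17 without wild-type replicate 3).

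The order of these 2 isoforms differed between libraries. Per length, the ife-3 level was 1.26 times that of ife-1 in wild-type replicate 3 and 1.27 times in knockout replicate 3. In the other 4 libraries it was 0.662 to 0.978 times, lowest in knockout replicate 2. As a share of the summed eIF4E level per length, ife-1 held 43.8% ± 2.62 in wild type and 46.2% ± 5.63 in knockout (SD, n = 3), and ife-3 held 46.5% ± 4.18 and 42.2% ± 8.7 (SD, n = 3). The ife-1 means differed by less than either SD. The ife-3 means differed by slightly more than the wild-type SD and by less than the knockout SD. In both isoforms the shares of the genotypes overlapped, and the differences were not tested.

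ife-2, whose loss is known to lengthen worm lifespan and which acts in somatic tissue, was the single member whose genotypes did not overlap. ife-2 (X, 381385 to 382709, minus strand) had 19, 16.7 and 20.6 CPM in the wild-type libraries against 22.6, 22.3 and 21 CPM in the knockout ones. Every knockout library was higher, but the lowest of them, at 21 CPM, stood close to the highest wild-type one, at 20.6 CPM. Among all genes, 1.72% had every knockout library above every wild-type library and 1.56% the reverse, against 1 and 0 of the 37 members. Its log2 fold change was 0.23 (SE of 0.23, and 0.996 as the edgeR adjusted p), with an interval of the fold from 0.811 to 1.69, and it was -0.01 on library totals alone. Its differences in the 3 replicate pairs were 0.25, 0.41 and 0.03 on the log2 scale. That all 3 were positive follows from the lack of overlap and adds no further support. Knockout was higher in all 3 pairs for 1 of 37 members and for 1611 of the 14354 genes tested.

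The remaining isoforms were scarce. ife-4 (X, 1104212 to 1106251, plus strand), known from neurons and muscle, had 5.28, 7.36 and 5.48 CPM in the wild-type libraries against 5.82, 5.21 and 5.63 CPM in the knockout ones, so that wild-type replicate 2 stood above the other 5. ife-5 (II, 12280660 to 12284139, plus strand), a germline relative of ife-1, had 3.91, 4.74 and 5.66 CPM in the wild-type libraries against 3.9, 3.86 and 6.29 CPM in the knockout ones, again highest in the replicate 3 libraries. Their log2 fold changes were -0.12 (SE 0.28) and -0.03 (SE 0.32). Per length, ife-1 exceeded ife-2 by 4.7 to 7.47 times, ife-2 exceeded ife-4 by 2.29 to 4.31 times and ife-4 exceeded ife-5 by 1.49 to 2.58 times, each in all 6 libraries. The lowest count behind any member value was 94.

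ifg-1 (II, 8217222 to 8222396, plus strand), the eIF4G scaffold gene of the worm, varied by 2.41 times between its lowest and highest library. It had 107, 171 and 165 CPM in the wild-type libraries against 78.8, 144 and 190 CPM in the knockout ones. Replicate 1 was the low library in both genotypes, and the log2 fold change was -0.10 (SE 0.37), which became 0.18 if knockout replicate 1 was left out, and 0.02 or 0.04 if wild-type replicate 2 or 3 was. eif-4A3, whose product is known in mammals as the helicase of the exon junction complex, had 65.2 ± 12.7 CPM on average in wild-type and 59.2 ± 17.3 CPM in knockout libraries (SD, n = 3).

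**Figure D3:**
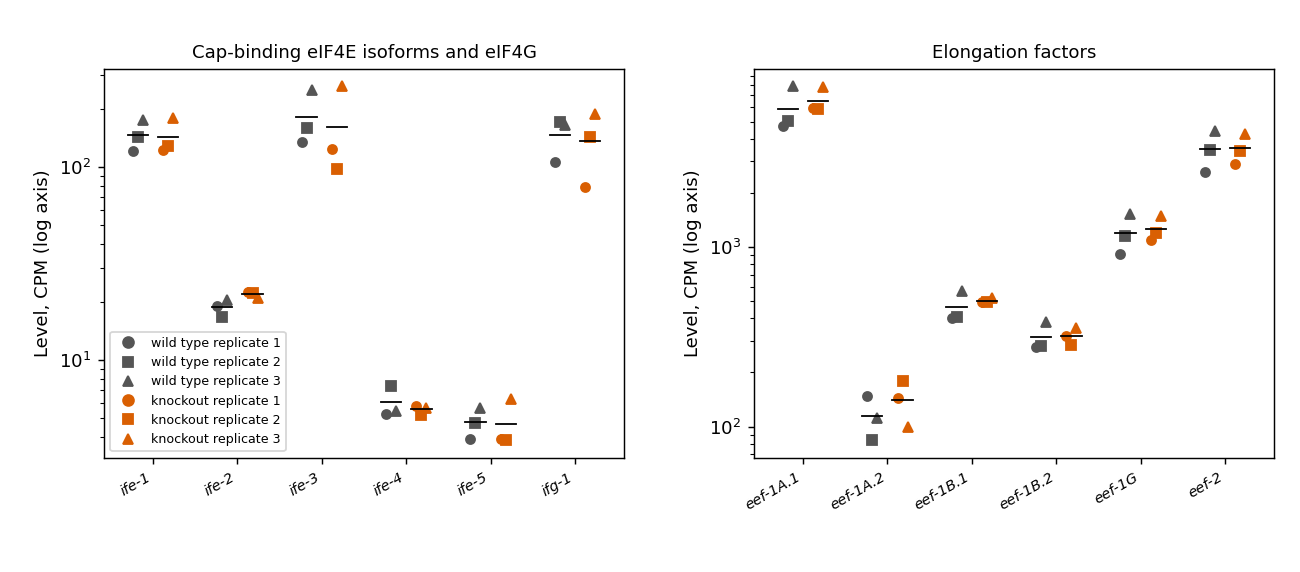
Level in CPM (log axis) of the 5 eIF4E genes and ifg-1 (left) and of the 6 elongation factor genes (right) in each library; grey symbols are wild type, orange symbols knockout, shapes mark the replicate number, and bars are group means. Of the 12 genes shown, ife-2 is the one with no overlap of the genotypes, and ife-3 is highest in both replicate 3 libraries, at 251 and 263 CPM.

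eif-1 and eif-1.A encode the factors that help the small subunit scan for the start codon, and eIF6 keeps the large subunit from joining early. eif-1 (II, 4990831 to 4993580, minus strand) had 84.9, 80.1 and 80.2 CPM in the wild-type libraries against 54.3, 57.9 and 94 CPM in the knockout ones. Knockout replicates 1 and 2 were below all wild-type libraries and knockout replicate 3 above them, with a log2 fold change of -0.25 (SE 0.29) that became -0.53 without knockout replicate 3. eif-1.A was the most abundant initiation factor transcript per length among the members, at 432 ± 53.2 TPM (SD, n = 6). The lowest of these 3 was eif-6, at 110 ± 19.5 TPM. The log2 fold changes of eif-1.A and eif-6 were 0.01 (SE 0.26) and -0.02 (SE 0.29).

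The 3 eIF2 subunit genes had log2 fold changes from -0.04 to 0.01. eif-2beta, whose product takes part in start codon selection, had 218, 206 and 187 CPM in the wild-type libraries against 213, 210 and 180 CPM in the knockout ones. It was the steadiest member, with a ratio of 1.21 between its highest and lowest library, and unlike most members it was lowest in both replicate 3 libraries. eif-2alpha encodes the subunit that stress kinases phosphorylate, and had a log2 fold change of 0.01 (SE 0.27); that of eif-2gamma, the GTP-binding subunit, was -0.04 (SE 0.32). Per length eif-2beta was above eif-2gamma in all 6 libraries, by 1.11 to 2.34 times, while eif-2gamma and eif-2alpha changed order in wild-type replicate 1.

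All 5 eIF2B subunit genes had negative log2 fold changes under every scaling tried, from -0.26 (eif-2Bdelta) to -0.11 (eif-2Bgamma) with TMM, and none passed the test. When wild-type replicate 3 or knockout replicate 1 was left out, 2 of the 5 were positive, and leaving out knockout replicate 2 gave 1. eIF2B is the nucleotide exchange factor that phosphorylated eIF2 blocks. eif-2Bbeta had 28.6, 26.7 and 29.7 CPM in the wild-type libraries against 19.8, 18.6 and 32.9 CPM in the knockout ones, and eif-2Bdelta had 55.4, 62.4 and 87.4 CPM against 44.5, 44.3 and 82.8 CPM. In both genes knockout replicates 1 and 2 were the lowest libraries of the 6 and knockout replicate 3 was near or above the wild type. Their log2 fold changes of -0.25 (SE 0.29) and -0.26 (SE 0.34) became -0.55 and -0.62 without knockout replicate 3, and leaving out wild-type replicate 3 brought eif-2Bdelta to 0.01. The 5 subunits lay close together per length, from 36.7 ± 10.3 TPM for eif-2Bepsilon, the catalytic subunit, to 61.2 ± 17.1 TPM for eif-2Bdelta (SD, n = 6). eif-2Bdelta and eif-2Bgamma changed order between libraries, as did eif-2Bgamma and eif-2Balpha.

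eif-2D had the smallest unadjusted p of the members. In mammals its product can place an initiator tRNA without the eIF2 cycle and helps recycle ribosomes. eif-2D (II, 5691721 to 5693939, plus strand) had 71.3, 60.8 and 75.9 CPM in the wild-type libraries against 43.1, 33.3 and 79.2 CPM in the knockout ones. Knockout replicates 1 and 2 were below every wild-type library, and knockout replicate 3 was the highest of all. The log2 fold change was -0.42 (SE 0.35; edgeR unadjusted p = 0.261, adjusted p = 0.996), with -0.85 if knockout replicate 3 was left out and -0.19 if knockout replicate 2 was. With the replicate number as a block it was -0.51 (SE 0.227; edgeR unadjusted p = 0.0474, adjusted p = 0.771), in a fit where 4.77% of all genes had an unadjusted p under 0.05. eif-2A, the gene of another alternative initiation factor, had 163 ± 40.1 CPM on average in wild-type and 151 ± 55.3 CPM in knockout libraries (SD, n = 3).

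eIF3 was covered by 11 subunit genes, eif-3.B to eif-3.L, and all 11 had log2 fold changes below 0 on TMM scaling, but 7 of 11 with RLE factors or DESeq2 8 of 11 without a filter and 10 of 11 with a minimum of 1 CPM. With TMM they ran from -0.28 (eif-3.L) to -0.00 (eif-3.I), with a median of -0.10. None passed the test, and 8 of 11 were positive when either wild-type replicate 3 or knockout replicate 1 was left out, and 6 when knockout replicate 2 was. By pair, 11 of 11 were lower in knockout in the replicate 2 pair, 7 in the replicate 1 pair and 3 in the replicate 3 pair. eif-3.L encodes a subunit that worms can live without. It had 119, 106 and 122 CPM in the wild-type libraries against 70.1, 76.2 and 138 CPM in the knockout ones, so that knockout replicates 1 and 2 were low and knockout replicate 3 the highest. Its log2 fold change was -0.28 (SE 0.32), with -0.65 if knockout replicate 3 was left out and -0.11 if knockout replicate 1 was. eif-3.K, the other dispensable subunit, had 60.6 ± 9.41 CPM on average in wild-type and 56.7 ± 17.7 CPM in knockout libraries (SD, n = 3).

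On TPM over all genes, mean levels spanned 2.53 times among the eIF3 genes, against 1.82 times in eIF2 and 1.67 times in eIF2B. Over protein-coding genes, eif-3.C, a core subunit, was highest at 223 ± 45 TPM. eif-3.J, a loosely bound subunit, was lowest at 87.3 ± 20 TPM (SD, n = 6). eif-3.C had 316, 331 and 420 CPM in the wild-type libraries against 259, 265 and 414 CPM in the knockout ones, with a log2 fold change of -0.19 (SE 0.29), which became -0.43 if knockout replicate 3 was left out and -0.00 if wild-type replicate 3 was. eif-3.J had 32.7, 36.7 and 51.1 CPM in the wild-type libraries against 31.7, 32.5 and 54.7 CPM in the knockout ones, and its replicate 3 libraries were again the highest. Of the 10 neighbouring pairs in the order, 8 changed places in at least 1 library: for example, eif-3.B exceeded eif-3.E in 3 of 6 libraries, and eif-3.C exceeded eif-3.F in 2 of 6. The upper bounds of the fold intervals of the 11 genes ran from 1.32 to 1.66, and the lower bounds from 0.495 to 0.623.

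The 6 elongation factor genes together took 1.94% ± 0.274 of protein-coding counts in wild type and 2.04% ± 0.145 in knockout (SD, n = 3). The 31 initiation factor genes together took 0.56% ± 0.0262 and 0.505% ± 0.0888. eef-1A.1 (III, 6970026 to 6971712, minus strand), also known as eft-3 and as the source of a broadly active promoter, had 4720, 5020 and 7860 CPM in the wild-type libraries against 5920, 5850 and 7830 CPM in the knockout ones. Replicate 3 was the high library of each genotype, and the log2 fold change was 0.15 (SE of 0.29, and 0.996 as the edgeR adjusted p). Leaving out wild-type replicate 3 gave 0.47, leaving out knockout replicate 3 gave 0.01, and library totals alone gave -0.04.

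eef-1A.2 (X, 7823654 to 7825769, plus strand), the other eEF1A gene, had 147, 84.2 and 111 CPM in the wild-type libraries against 144, 180 and 99.2 CPM in the knockout ones. It was the member with the largest positive value, a log2 fold change of 0.30 (SE of 0.33, and 0.996 as the edgeR adjusted p), and it rested on the replicate 2 pair, where the difference was 1.09 on the log2 scale against -0.03 and -0.17 in the other pairs. Leaving out either replicate 2 library gave 0.12 (knockout) or 0.13 (wild type), leaving out knockout replicate 3 gave 0.51 and leaving out wild-type replicate 1 gave 0.62, and on library totals alone it was -0.00. Per length, eef-1A.1 exceeded eef-1A.2 by 39.9, 73.9 and 87.5 times in wild type and by 51, 40.3 and 97.8 times in knockout, highest in both replicate 3 libraries. The eEF1A genes are close copies, and the counting command sets no option to include read pairs that map to several places, so both levels and their ratio are uncertain.

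eef-2, the translocase gene, had 2610, 3480 and 4440 CPM in the wild-type libraries against 2910, 3440 and 4280 CPM in the knockout ones, with a log2 fold change of 0.01 (SE 0.29). The replicates had the same order in both genotypes. Per length eef-1A.1 was 2.63 to 3.7 times eef-2 over the 6 libraries. The genes of the exchange complex, eef-1B.1, eef-1B.2 and eef-1G, had log2 fold changes of 0.13 (SE 0.25), 0.02 (SE 0.26) and 0.08 (SE 0.28). eef-1B.1 had 404, 410 and 568 CPM in the wild-type libraries against 494, 492 and 523 CPM in the knockout ones, and its knockout libraries lay inside the wild-type range. eef-1G, at 1150 CPM in wild-type replicate 2 and 1200 CPM in knockout replicate 2, was at its highest in the replicate 3 libraries, with 1520 and 1480 CPM. The order of levels per length, eef-1A.1, eef-2, eef-1G, eef-1B.1, eef-1B.2 and eef-1A.2, held in all 6 libraries.

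Most members shared a high level in the replicate 3 libraries. Replicate 3 was the highest library of both genotypes in 29 of 37 members, or 78.4%, against 30.6% of all genes tested. Both replicate 3 libraries also had the smallest rRNA share, at 26.0% in wild type and 22.9% in knockout. Mitochondrial mRNA was scarcest there too, making up 0.588% and 0.927% of the protein-coding total. Wild-type replicate 2 came next for both shares, at 34.1% and 1.81%. Knockout replicate 2 was highest in both, at 58.5% and 5.13%. Whether these shares relate to the member levels was not tested. Knockout was below wild type in the replicate 1 and 2 pairs and above it in the replicate 3 pair for 17 members. That is 45.9%, against 27.1% of all genes. All 17 were among the 31 initiation factors. The pattern was not particular to them, as 65.8% of the 38 other translation machinery genes described below also had it. Of the 6 elongation factors 0 had this pattern, and 4 had the reverse in each of the 3 pairs. Knockout was lower in all 3 pairs for 4 members, or 10.8%, against 10.4% of all genes. These were eif-2Bdelta, eif-3.C, eif-3.H and eif-4A3, named here after their values were seen. The mean level of the members, as log2 CPM relative to each gene's mean, was -0.14, -0.02 and 0.29 in wild type and -0.25, -0.21 and 0.33 in knockout. Elongation factor levels were -0.22, -0.21 and 0.24 in wild type and -0.02, 0.06 and 0.16 in knockout. Ribosomal protein gene levels were -0.27, -0.13 and 0.12 in wild type and -0.04, 0.22 and 0.10 in knockout. Of these 77 genes, replicate 3 was the highest wild-type library in 65 and the highest knockout library in 14. It was highest in both genotypes in 15.6%. Positive log2 fold changes were found in 74 of the 77, but in 11 on library totals alone.

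Germline and oocyte markers ran with the mean level of the members, but not with every class. Of the members, 12 were lowest in knockout replicate 1, 11 in knockout replicate 2 and 11 in wild-type replicate 1. Elongation factors were on average lowest in wild-type replicates 1 and 2. The 14 germline and oocyte markers had levels of -0.24, 0.25 and 0.72 in wild type and -0.76, -0.77 and 0.80 in knockout, highest in both replicate 3 libraries and lowest in knockout replicates 1 and 2. Their summed CPM ranged from 2650 to 6190 in wild type and from 1730 to 6520 in knockout, none was called and none was at 0 in any library. All 14 had negative log2 fold changes, with a median of -0.33, but 10 were positive if wild-type replicate 3 was left out, 5 if knockout replicate 1 was and 1 if knockout replicate 2 was. Sperm markers were in another order, with summed CPM of 17.9 to 32.8 in wild type and 6.93 to 33 in knockout, lowest in knockout replicate 3, and all 12 tested had negative log2 fold changes, of which 4 were positive without knockout replicate 3. Body wall muscle markers were highest in knockout replicate 2, with summed CPM of 1730 there and 434 to 1040 in the other 5 libraries. Positive log2 fold changes were found in 6 of 6 muscle, 7 of 7 intestine and 5 of 7 neuron markers. They were also found in 2 of 4 hypodermis and 4 of 5 embryo markers tested. On library totals alone, 1 muscle, 3 intestine, 0 neuron, 2 hypodermis and 3 embryo markers were positive. Without knockout replicate 2, 2 muscle and 3 neuron markers were, and without wild-type replicate 2, 4 of 7 intestine markers were. The part of tissue makeup in the member values was not tested, and in whole worms fewer cells of a type and less RNA per cell cannot be told apart.

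**Figure D4:**
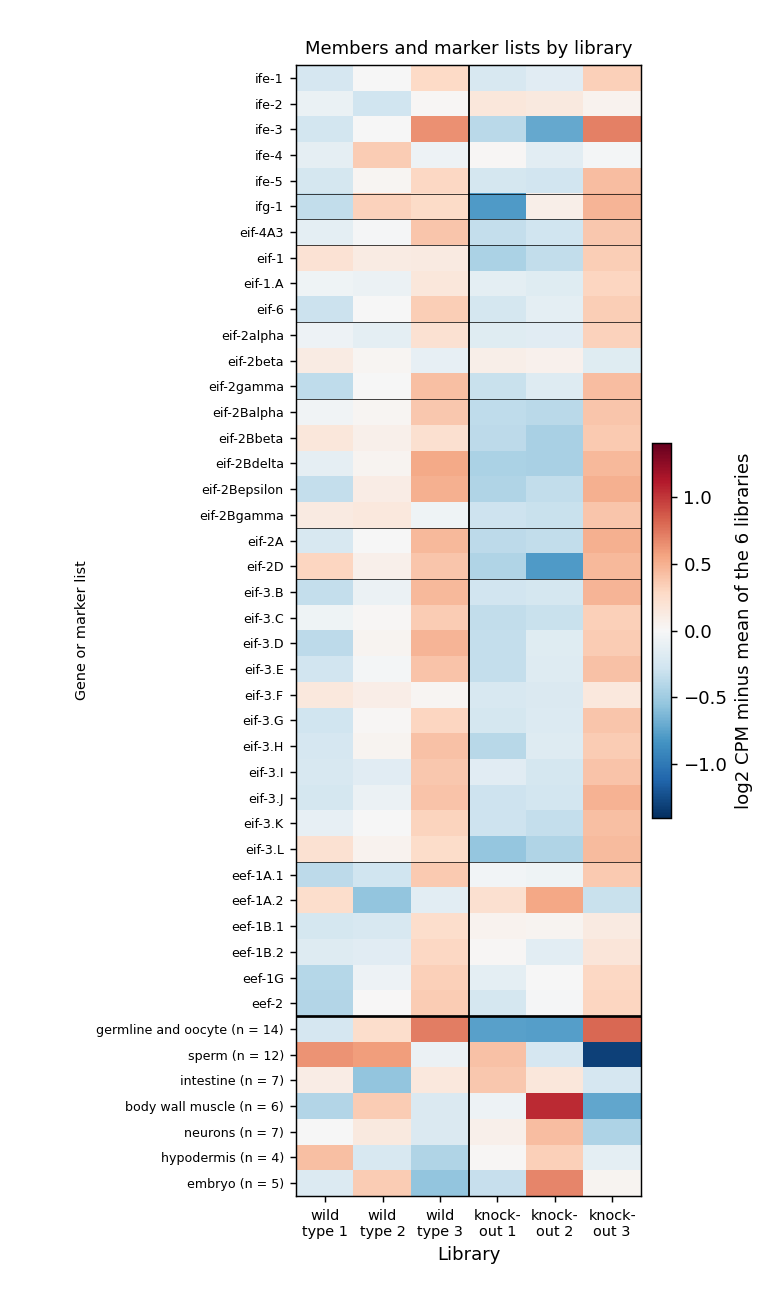
Colour gives log2 CPM minus the mean of the 6 libraries for each of the 37 genes, grouped by class, and the mean of the same quantity over the tested genes of each marker list below the thick line. Most members are above their mean in the replicate 3 libraries of both genotypes, where the germline and oocyte markers are at 0.72 and 0.80; eif-2beta, eef-1A.2 and ife-4 are below theirs in both.

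Other genes of the translation machinery, taken from a list of 45 symbols, gave 38 that the annotation names and that were tested, and 0 were called (0 also at an unadjusted p under 0.05). Of these, 33 had negative log2 fold changes and 5 positive, with a median of -0.11, but 31 were positive if wild-type replicate 3 was left out and 28 if knockout replicate 1 was. Replicate 3 was the highest library of both genotypes in 76.3% of the 38. The genes with the smallest p were iff-2 and iff-1, which encode the eIF5A proteins, the ribosome rescue factor gene pelo-1 and the ABC-F gene abcf-1. The eIF5A genes lay on opposite sides: iff-2 had 147, 117 and 138 CPM in the wild-type libraries against 211, 242 and 106 CPM in the knockout ones, and iff-1, the germline form, had 678, 642 and 684 CPM and 446, 519 and 735 CPM. Their log2 fold changes were 0.48 (SE 0.34) and -0.24 (SE 0.27). In iff-2 knockout replicates 1 and 2 were the high libraries and in iff-1 they were the low ones, while knockout replicate 3 stood at the opposite end in each. pelo-1 and abcf-1 had -0.39 (SE 0.29) and -0.28 (SE 0.34). The eIF3 subunits named outside the eif- prefix, egl-45 (eIF3A) and cif-1 (eIF3M), had -0.15 (SE 0.36) and -0.05 (SE 0.32), within the range of the other eIF3 genes.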

How the data were processed

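The deposited table holds raw counts, made by the authors with featureCounts 1.5.0 in paired mode over the exons of each gene, with option s at 2 and Ensembl WBcel235 gene models, per the file headers; the command sets no option for multi-mapping or multi-overlapping reads. bcl2fastq 2.19, HISAT2 2.1.0 and DESeq2 1.26.0 are named in the submitters' processing notes. Names came from Ensembl release 115 of the same build, which holds 46449 of the 46748 identifiers. At most 0.966% of any member's exon bases overlap another gene on the same strand.

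Counts were filtered by filterByExpr (minimum count 10, minimum total 15), scaled by TMM and fitted on the whole table with edgeR 4.0.16 (R 4.3.3), using glmQLFit with robust estimation and legacy set to FALSE, without covariates. Standard errors were derived from the F statistic and the log2 fold change. Log2 levels per library used a prior count of 2. The fit was checked on simulated data only for the size of the fold changes it returned. The simulated libraries were drawn without correlation between same-numbered libraries, and how many true changes would be missed here is not given. Alternatives were RLE factors, library totals alone, no filter, at least 1 CPM in 3 libraries, DESeq2 1.42.0, limma-voom (limma 3.58.1), protein-coding genes only, the replicate block and each library left out. No 2 libraries were copies (smallest chi-square per degree of freedom 96.9).

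Named genes were crh-1, called members, all ife-, ifg- and eef- members, the 6 members with the smallest p, the highest and lowest per class of at least 3, and 4 other translation genes by p; further members are given with group means. The members and lists were chosen with earlier results of these data known. Same-numbered libraries correlated in their deviations from the group means (0.65, 0.48 and 0.58 over genes), although the labels do not say what a number shares. They were compared as pairs in the description and blocked in the replicate block alternative. The main fit, with its standard errors, intervals and p-values, took them as unpaired.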

Additional observations from a re-analysis of the deposited data

How the results depend on the processing

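No member was called under any alternative run. The sign of small values depended on the processing, and so did the size and unadjusted p of some larger ones. For eif-2D the log2 fold change ran from -0.85 to -0.19 when libraries were left out. The count of called genes over the whole table was 0, but 5 on library totals alone, 31 with DESeq2 and 1 with the replicate block; it stayed 0 (0 to 0) when any library was left out. With the replicate block no member's call changed. The number of members with a positive value, 9 of 37, was 0 on library totals alone, 14 without a filter and 5 with protein-coding genes only, and ran from 5 to 27 when libraries were left out, with member medians from -0.31 to 0.17. Of the 29 named genes, 9 kept their sign in every setting. On library totals alone the sign turned for eef-1A.1 (-0.043), eef-1A.2 (-0.0027), eef-1B.1 (-0.10), eef-1B.2 (-0.18), eef-1G (-0.14), eef-2 (-0.20), ife-2 (-0.0097), eif-1.A (-0.19) and eif-2alpha (-0.19). With RLE factors it turned for eif-3.J (0.0089), with DESeq2 for eif-3.J (0.0040), and without a filter for ife-5 (0.0010), eif-2beta (0.0004) and eif-3.J (0.0045). eif-1.A and eif-2alpha stood at -0.0028 and -0.0044 with limma-voom and at -0.0053 and -0.0050 with the replicate block. With protein-coding genes only, eef-1B.2 (-0.014), eef-2 (-0.020), eif-1.A (-0.027) and eif-2alpha (-0.025) turned. The cause was not tested. With each library left out, ranges that crossed 0 were -0.24 to 0.056 for crh-1, -0.058 to 0.23 for eef-1B.2, -0.047 to 0.33 for eef-1G, -0.14 to 0.27 for eef-2, -0.21 to 0.17 for ife-1, -0.71 to 0.18 for ife-3, -0.16 to 0.047 for ife-4, -0.29 to 0.17 for ife-5, -0.39 to 0.18 for ifg-1, -0.15 to 0.13 for eif-1.A, -0.22 to 0.21 for eif-6, -0.063 to 0.10 for eif-2beta, -0.17 to 0.17 for eif-2alpha, -0.62 to 0.0078 for eif-2Bdelta, -0.50 to 0.13 for eif-2Bepsilon and -0.32 to 0.24 for eif-3.J. Without knockout replicate 3, 5 members had an unadjusted p under 0.05 (eif-1, eif-2Bbeta, eif-2Bdelta, eif-2D and eif-3.L; smallest adjusted p = 0.231 in edgeR), or 13.5% of the members against 19.3% of all genes tested in that setting. The median member level was 36.4 TPM over all genes and 134 over protein-coding genes, and the ife-5 share of the eIF4E level was 0.996% per length and 1.37% without length correction. The lowest count of a member in any library was 94, and the part of depth in the absence of calls was not tested.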
